A study of Mus musculus with 6 samples.

Results

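The genes described here are the matrix metalloproteinases, the ADAMTS proteases with their ADAMTS-like relatives, and the tissue inhibitors of metalloproteinases. They were taken by symbol among protein-coding genes (Adamts, Adamtsl, Mmp or Timp followed by a number). Described here are 50 of 21896 protein-coding genes, made up of 18 Adamts, 5 Adamtsl, 23 Mmp and 4 Timp genes. The question is where COUP-TFII peaks lay at these genes in fetal mesonephroi.

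MMP and ADAMTS enzymes are zinc proteases that cut collagens, proteoglycans and other matrix proteins, and TIMP proteins bind and block them. ADAMTS-like proteins share the ancillary domains of the ADAMTS family but have no protease domain. In the mesonephros, next to the gonad, mesenchyme surrounds the Wolffian and Müllerian ducts, and remodelling of such mesenchyme uses proteases of these families. COUP-TFII is the product of Nr2f2, a nuclear receptor found in mesenchyme that binds repeats of the sequence AGGTCA.

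COUP-TFII was mapped by chromatin immunoprecipitation and sequencing (ChIP-seq) in mesonephroi of CD-1 mouse embryos at E14.5. Chromatin came from pools of embryos, with 2 ChIP samples from XX (female) and 2 from XY (male) mesonephroi, beside 2 samples of input pooled from both. No genotype or treatment differed between the groups. The authors deposited 1 peak list per sex, with 11175 XX and 9846 XY peaks of 300 bp on mm10, and these carry positions only. The lists have no height, score or depth and no value per replicate, so no spread between replicates can be given and the sexes were not tested against each other. A peak in 1 list only may have been absent from the other sex or below the authors' threshold. Intervals below are exact (Clopper-Pearson) 95% intervals and cover counting error only. The lists measure no RNA, so the tissue could not be checked against marker genes, and whether a gene was expressed is not known here.

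Each peak went to the protein-coding gene whose body was nearest, up to 100 kb away, and a peak was called shared when an XX and an XY peak had at least 1 bp in common. Of the 50 genes, 24 had a peak in either list (48.0%, interval 33.7 to 62.6), beside 42.1% of all protein-coding genes. In the XX list 21 had a peak (42.0%), against 36.9% of all genes, and in the XY list 19 did (38.0%), against 35.0%. A shared peak was found at 16 (32.0%, interval 19.5 to 46.7), against 28.2%. The counts of the 50 genes as a whole were thus near the background. An XX-only peak was found at 10 genes, beside a background of 13.1%, and an XY-only peak at 5, beside 9.55%.

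Adamts and Adamtsl genes held most of these peaks. Of 18 Adamts genes, 13 had a peak in either list and 9 had a shared one. Of 5 Adamtsl genes, 4 had a peak and 3 a shared one. Mmp genes were at 6 of 23 with a peak (26.1%, interval 10.2 to 48.4) and 3 of 23 with a shared one (13.0%, 2.78 to 33.6). For Timp, 1 of 4 genes had a peak, which was shared. Over all protein-coding genes 42.1% had a peak in either list and 28.2% a shared one. The families also differed in length. The median was 95.2 kb for Adamts, 29.6 kb for Adamtsl, 28.4 kb for Timp and 12.7 kb for Mmp genes. Over all protein-coding genes it was 17.1 kb. Adamtsl genes ran from 9.24 to 915 kb, and Timp genes from 4.57 to 54.4 kb. Longer genes collected peaks more often throughout the genome, with a peak in either list at 30.1% of genes under 20 kb, 53.3% of those from 20 to 100 kb and 65.9% of those over 100 kb. Among genes from 20 to 100 kb, 5 of 7 Adamts (interval 29.0 to 96.3%) and 1 of 7 Mmp genes (0.361 to 57.9%) had a peak. These intervals overlap, and both include 53.3%. Among genes under 20 kb, 1 of 2 Adamts and 4 of 15 Mmp genes did, and among those over 100 kb, 7 of 9 Adamts genes and the only Mmp gene, Mmp16. The part of gene length in the difference between the families was not tested.

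**Figure D1:**
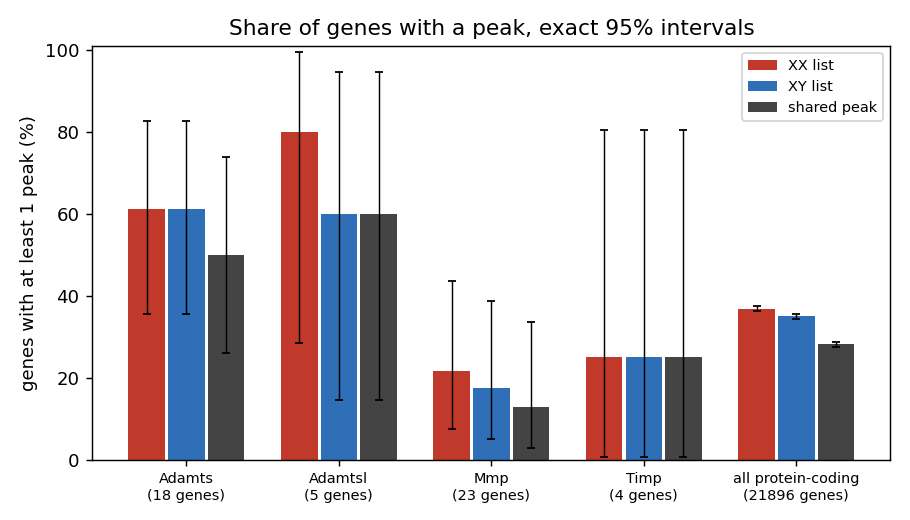
Share of genes (%) with at least 1 peak in the XX list, in the XY list, or shared by both, for each family and for all 21896 protein-coding genes, with bars from 0 and exact 95% intervals. In the XX list the share was 61.1% for Adamts, 80.0% for Adamtsl, 21.7% for Mmp and 25.0% for Timp genes, against 36.9% of all genes. The intervals are wide, and in the XX list that of every family includes 36.9%. In the XY list the Adamts interval (35.7 to 82.7) begins just above the 35.0% of all genes.

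The 50 genes held 31 XX and 24 XY peaks, at 36 places in all. Of these places 19 were shared, 12 were XX-only and 5 were XY-only. Shared peaks made up 61.3% of the XX peaks (interval 42.2 to 78.2) and 79.2% of the XY peaks (57.8 to 92.9), beside 68.4% and 76.2% of all peaks given to a gene. Of the peaks at these genes that were in 1 list only, 70.6% were XX peaks (44.0 to 89.7), beside 59.6% over all genes. Both intervals for the shared peaks, and that for the XX-only share, include the value over all genes. The centres of shared peaks lay between 7 and 140 bp apart, with a median of 38 bp, beside 33 bp over all 7483 shared peaks.

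**Figure D2:**
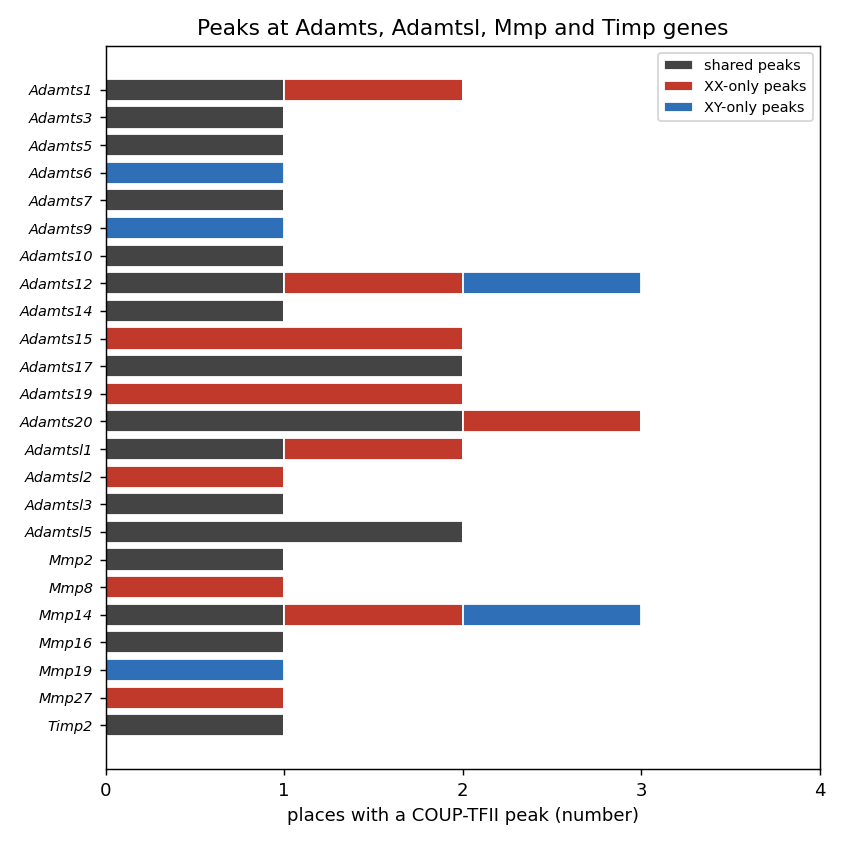
Number of places with a COUP-TFII peak at each of the 24 genes that had any, divided into shared, XX-only and XY-only peaks. Adamts12, Adamts20 and Mmp14 have 3 places each, and only Adamts17, Adamts20 and Adamtsl5 have 2 shared ones.

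Most places were away from gene ends. Of the 36 places, 13 lay within 1 kb of an end of the gene (36.1%, interval 20.8 to 53.8), 15 lay deeper inside it (41.7%) and 8 lay over 1 kb outside it (22.2%). Over all genes these shares were 56.0%, 26.4% and 17.7%. The interval at the proteases lies below the share of 56.0% over all genes, but this difference was not tested. That interval takes the 36 places as independent, though some genes hold more than 1. Several places fell just past the limit: Adamts15 at 1.01 kb, Adamts1 at 1.05 kb and Adamts5 at 1.27 kb. The last place counted as near an end was at Mmp14, at 0.943 kb. With a limit of 2.5 kb, 18 of the 36 places were near an end. The share over all genes at that limit is not given here, so 56.0% is no background for this count. A peak within 1 kb of an end was found at 12 of the 50 genes, against 30.0% of all genes, and a shared one at 8, against 20.3%.

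**Figure D3:**
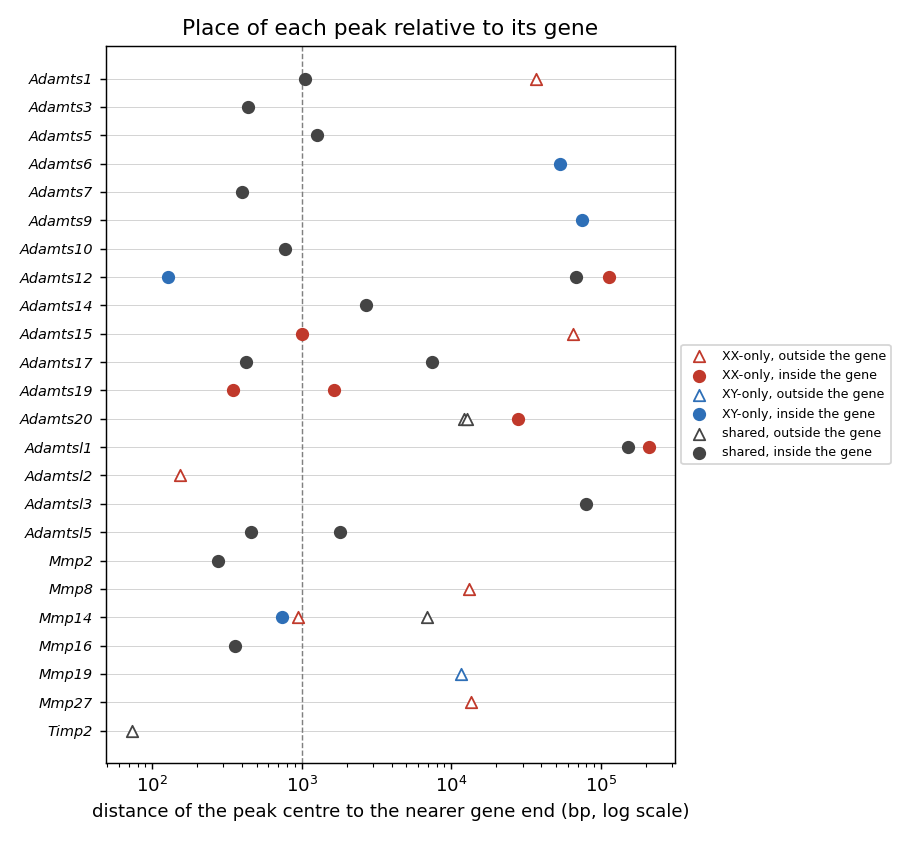
Distance of each peak's centre to the nearer end of its gene (bp, log scale), with filled circles for places inside the gene and open triangles for places outside; shared places are drawn at the XX position and the dashed line marks 1 kb. Shared places at Timp2 and Mmp2 are the nearest among shared ones, at 73 and 274 bp, and the XX-only place at Adamtsl1 is the farthest from an end, at 210411 bp.

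Mmp2, Mmp14 and Timp2 each had a shared peak. These genes encode the gelatinase MMP2, the membrane-bound protease that activates its proenzyme, and the inhibitor that brings the pair together at the cell surface. They were set side by side after their peaks had been seen. Timp2 (chromosome 11, 118301061 to 118355411) had 1 XX peak at 118355335 to 118355634 and 1 XY peak at 118355373 to 118355672. These peaks lay over the gene's start, with centres 73 and 111 bp upstream of it. Mmp2 (chromosome 8, 92827290 to 92853421) had 1 XX peak at 92827415 to 92827714 and 1 XY peak at 92827477 to 92827776, inside the gene and 274 and 336 bp from its lower-coordinate end. Mmp14 (chromosome 14, 54431598 to 54442456) had a different pattern. Its shared peak lay 6.93 kb beyond the 3′ end (54449236 to 54449535 in the XX list, 54449199 to 54449498 in the XY list), in the stretch between Mmp14 and Lrp10. This peak was 573 bp (XX) and 610 bp (XY) from an end of the noncoding gene Gm24424, and went to that gene when genes of every type competed, so that Mmp14 then had no shared peak. An XY-only peak lay 734 bp downstream of the start (54432183 to 54432482), and an XX-only peak lay 943 bp past the 3′ end (54443250 to 54443549). Near the Mmp14 start a peak was thus called in the XY list only.

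Of the 6 membrane-type Mmp genes, Mmp14 and Mmp16 had a peak (33.3%, beside 42.1% of all genes) and Mmp15, Mmp17, Mmp24 and Mmp25 did not. Mmp16 (chromosome 4, 17853072 to 18117479) had 1 shared peak, at 17853284 to 17853583 in the XX list and 17853249 to 17853548 in the XY list, 361 and 326 bp from its lower-coordinate end. The nearest end of any other gene lay 156 kb from the XX peak. At Mmp15 the nearest peaks lay 5.17 kb outside the gene in the XX list and 5.28 kb in the XY list, and went to Usb1. At Mmp24 an XX peak lay 0.640 kb outside the gene and went to BC029722, which overlaps Mmp24. The other gelatinase gene, Mmp9, had no peak nearer than 29.1 kb in either list.

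Of the 14 other secreted Mmp genes, among them the collagenases, stromelysins and matrilysin, none had a shared peak (interval 0 to 23.2%). Their median length was 10.3 kb. A shared peak was found at 28.2% of all protein-coding genes and at 20.1% of those under 20 kb, which the interval includes. Mmp8, Mmp19 and Mmp27 had 1 peak each, in 1 list only. Mmp8 encodes a collagenase of neutrophils, and its XX-only peak lay 13.2 kb outside the gene. The XX-only peak of Mmp27 lay 13.6 kb outside. At Mmp19 the XY-only peak lay 11.7 kb outside the gene and 1.89 kb from a ribosomal protein pseudogene. A nearer pair of peaks lay 4.66 kb (XX) and 4.63 kb (XY) outside Mmp19 and went to Dnajc14. None of the peaks given to Mmp8, Mmp19 and Mmp27 was within 10 kb of its gene. Mmp11, Mmp21, Mmp28 and the membrane-anchored Mmp23 also had no peak.

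Of the Mmp genes, 10 form a cluster of 427 kb on chromosome 9 (7272514 to 7699585), in the order Mmp13, Mmp12, Mmp1b, Mmp3, Mmp1a, Mmp10, Mmp8, Mmp27, Mmp20 and Mmp7. The XX list had 2 peaks in this cluster, the ones given to Mmp8 and Mmp27, and the XY list had 0. This came to 4.68 XX peaks per Mb, beside 5.45 per Mb over the annotated span of the chromosome, and 0 XY peaks beside 4.71 per Mb. At these rates a stretch of this length holds few peaks, and the counts are too small to place the cluster above or below its chromosome. The neighbouring peaks of both lists lay 87.5 kb (XX) and 87.6 kb (XY) before the cluster and went to Dcun1d5. On the other side the peaks of both lists went to Birc2 and Birc3.

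**Figure D4:**
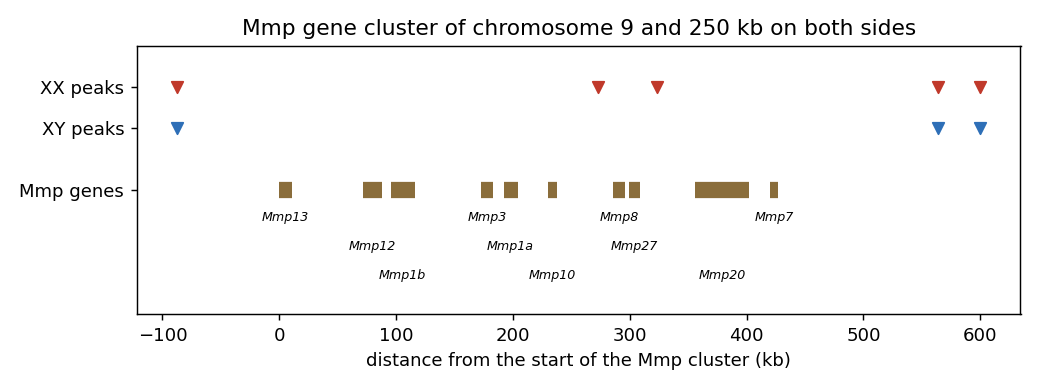
Map of the Mmp genes of chromosome 9 (brown bars) with XX and XY peaks (triangles) over the cluster and 250 kb on both sides, as distance in kb from the first base of the cluster. The XX list has 2 peaks in the cluster, at 273 and 323 kb, and the XY list has none; the peaks outside it stand in both lists.

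Among the 7 Adamts genes whose enzymes cut versican, aggrecan and other proteoglycans, 5 had a peak (interval 29.0 to 96.3%) and 3 a shared one (9.9 to 81.6%). No peak lay within 1 kb of an end of the gene as annotated (0 to 41.0%). These intervals include the shares over all genes, 42.1%, 28.2% and 30.0%. The role groups were made after values were seen. Adamts1 and Adamts5, neighbours on chromosome 16, each had a shared peak just inside the gene. At Adamts1 (85793827 to 85803113) the centres lay 1.05 kb (XX) and 1.02 kb (XY) downstream of the start, and an XX-only peak lay 37.1 kb beyond the other end. At Adamts5 (85858157 to 85901125) they lay 1.27 and 1.25 kb from the higher-coordinate end, within 70 bp of an end of the noncoding gene Gm46558. Adamts15 had 2 XX-only peaks, 1 of them 1.01 kb inside the gene and 1 of them 65.1 kb outside, and the nearest XY peak lay 289 kb away. That outer peak was the farthest of any given to these genes. The nearest peaks left out by the limit of 100 kb lay 129 kb from Adamts20, 1 in each list. Adamts9 had 1 XY-only peak, 74.5 kb from an end and 0.612 kb from an end of the noncoding gene Gm15737. Adamts4 and Adamts8 had no peak.

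Adamts20 (chromosome 15, 94268314 to 94432074), a gene needed for the spread of pigment cells in mouse skin, had 3 XX and 2 XY peaks. The shared pair lay 12.1 and 12.8 kb outside the gene's higher-coordinate end, at 94444043 to 94444342 and 94444747 to 94445046 in the XX list. The XY peaks of this pair lay at 94444174 to 94444473 and 94444887 to 94445186, so that both pairs were offset the same way, by 131 and 140 bp. These were the largest offsets at any of the 50 genes. With centres required to lie within 100 bp, neither counted as shared. An XX-only peak at 94403873 to 94404172 lay inside the gene as annotated, 28.1 kb from its end, but 328 bp downstream of the RefSeq start used for the promoter table. The annotated body of Adamts20 extends farther upstream than that start.

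Adamts3 and Adamts14, of the procollagen N-proteinase type, each had a shared peak. At Adamts3 (chromosome 5, 89673841 to 89883668) the peaks lay at 89883080 to 89883379 (XX) and 89883112 to 89883411 (XY), with centres 105 and 73 bp downstream of the RefSeq start. At Adamts14 they lay 2.68 kb inside the 3′ end, and 73.6 kb from the start, at the opposite end of the gene. Adamts7 and Adamts12, whose enzymes cut cartilage oligomeric matrix protein, also had a shared peak each. Groups of 2 genes are too small to set against the 28.2% of all genes with a shared peak. That of Adamts7 (chromosome 9, 90162904 to 90200102) lay at 90163154 to 90163453 in the XX list and 90163106 to 90163405 in the XY list, 399 and 351 bp from the lower-coordinate end. Adamts12 (chromosome 15, 11064773 to 11349232) had 2 peaks in each list. The shared peak lay deep inside the gene (11280815 to 11281114 in the XX list, 11280748 to 11281047 in the XY list), 68.3 kb from the 3′ end. A further XX-only peak (11177458 to 11177757) lay 113 kb inside, and an XY-only peak (11064751 to 11065050) lay 127 bp downstream of the start. As at Mmp14, the peak at the start stood in the XY list only. Adamts13, whose enzyme cuts von Willebrand factor, had no peak of its own. An XY peak lay 0.434 kb outside Adamts13 and went to Cacfd1.

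The remaining Adamts genes are Adamts6, Adamts10, Adamts16, Adamts17, Adamts18 and Adamts19. Adamts10 and Adamts17, both known for disorders of fibrillin-rich tissue, had shared peaks. That of Adamts10 (chromosome 17, 33523646 to 33553782) lay at 33524272 to 33524571 (XX) and 33524247 to 33524546 (XY), 775 and 750 bp from the lower-coordinate end. Adamts17 (chromosome 7, 66839699 to 67153171) was among the 3 genes with 2 or more shared peaks, where the background was 3.69% of genes. Its first pair lay at 66839975 to 66840274 (XX) and 66839945 to 66840244 (XY), 389 and 359 bp downstream of the RefSeq start, and also 333 and 303 bp from an end of the noncoding gene Gm33627. The second pair lay at 66846990 to 66847289 (XX) and 66847046 to 66847345 (XY), 7.40 and 7.46 kb downstream of the start. Adamts19 (chromosome 18, 58835992 to 59053682) had 2 XX-only peaks, at 58836190 to 58836489 and 58837491 to 58837790, 347 and 1648 bp from its lower-coordinate end. The nearest XY peak lay 93.5 kb outside Adamts19, so that this end of the gene carried peaks in the XX list only. Adamts6 had 1 XY-only peak, 53.5 kb from an end, and Adamts16 and Adamts18 had none.

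Among the ADAMTS-like genes, Adamtsl5 (chromosome 10, 80339793 to 80349030) had 2 shared peaks in a gene of 9.24 kb. One pair lay over the RefSeq start, at 80348424 to 80348723 (XX) and 80348402 to 80348701 (XY), with centres 125 and 103 bp upstream of it. The other lay 1.81 and 1.85 kb inside the 3′ end, at 80341450 to 80341749 (XX) and 80341491 to 80341790 (XY). Adamtsl2 (chromosome 2, 27079336 to 27108981), whose protein binds fibrillin and the latent TGF-beta binding proteins, had 1 XX-only peak at 27079033 to 27079332, with its centre 197 bp upstream of the RefSeq start. The nearest XY peak to Adamtsl2 lay 69.3 kb away. Adamtsl1, the longest gene of the 50 at 915 kb, had a shared peak 153 kb and an XX-only peak 210 kb from its nearer end. Adamtsl3 had a shared peak 80.0 kb from its 3′ end. Adamtsl4 had no peak.

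Timp1, Timp3 and Timp4 had no peak of their own. Each overlaps a synapsin gene in the annotation (Syn1, Syn3 and Syn2), so a peak beside them can go to the synapsin gene instead. At Timp1, on the X chromosome, the nearest XX peak lay 7.20 kb outside and went to Syn1, and the nearest XY peak lay 21.8 kb away. At Timp3 the nearest peaks of both lists lay 16.2 kb outside, and both went to Syn3. At Timp4 the nearest of either list lay 110 kb away. In all, 26 of the 50 genes had no peak of their own. The nearest peak lay within 20 kb of 9 of them, with a median of 29.0 kb.

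The promoter sequences show the starts at which peaks lay. RefSeq promoter windows (GRCm38.p6, from 250 bases before to 50 after a start) were given for 35 of the 50 genes, some with more than 1 start. A peak centre lay within 1 kb of such a start in the XX list at 6 of the 35 genes, against 32.2% of the 17491 protein-coding genes with a window, and in the XY list also at 6, against 32.3%. Both lists had one at Adamts3, Adamts17, Adamtsl5 and Timp2, 4 of 35 against 27.4%. Either list had one at 8, against 37.0%. The genes without a window include Adamts7, Adamts10, Adamts19, Mmp2 and Mmp16. Each of these had a peak within 1 kb of a gene end, and whether that end is the start was not determined. All 10 genes of the chromosome 9 cluster had a window, so the 35 genes do not stand for all 50. The 5 windows that a peak overlapped are printed from 5′ to 3′ in the direction of transcription. The hexamers AGGTCA and GGGTCA and the TATA box TATAAA are in capitals on either strand. So is TGANTCA, a pattern that includes the sites TGAGTCA and TGACTCA of AP-1 factors. The windows are shown because they hold the bases under a peak. Those of Timp2, Adamtsl5 and Adamts3 had peaks in both lists, that of Adamtsl2 in the XX list and that of Adamts12 in the XY list.
Timp2 (chr11:118355362-118355661, minus strand): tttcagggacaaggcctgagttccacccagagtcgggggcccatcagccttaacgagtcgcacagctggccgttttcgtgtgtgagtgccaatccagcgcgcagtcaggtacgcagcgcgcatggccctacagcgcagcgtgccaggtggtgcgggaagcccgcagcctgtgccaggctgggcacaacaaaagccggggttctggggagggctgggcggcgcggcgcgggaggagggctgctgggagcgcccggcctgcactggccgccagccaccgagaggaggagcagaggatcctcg
Adamtsl5 (chr10:80348399-80348698, minus strand): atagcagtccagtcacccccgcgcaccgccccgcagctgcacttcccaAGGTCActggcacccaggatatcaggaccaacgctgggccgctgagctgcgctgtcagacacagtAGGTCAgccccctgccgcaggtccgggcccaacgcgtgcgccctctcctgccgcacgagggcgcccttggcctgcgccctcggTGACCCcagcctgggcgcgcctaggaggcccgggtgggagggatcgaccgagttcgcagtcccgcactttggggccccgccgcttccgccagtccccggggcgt
Adamts3 (chr5:89883285-89883584, minus strand): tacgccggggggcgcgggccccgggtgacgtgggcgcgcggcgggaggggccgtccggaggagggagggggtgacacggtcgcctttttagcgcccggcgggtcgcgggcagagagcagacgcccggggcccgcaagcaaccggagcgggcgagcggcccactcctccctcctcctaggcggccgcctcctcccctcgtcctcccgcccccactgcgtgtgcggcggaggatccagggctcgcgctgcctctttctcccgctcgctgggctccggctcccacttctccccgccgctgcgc
Adamtsl2 (chr2:27079129-27079428, plus strand): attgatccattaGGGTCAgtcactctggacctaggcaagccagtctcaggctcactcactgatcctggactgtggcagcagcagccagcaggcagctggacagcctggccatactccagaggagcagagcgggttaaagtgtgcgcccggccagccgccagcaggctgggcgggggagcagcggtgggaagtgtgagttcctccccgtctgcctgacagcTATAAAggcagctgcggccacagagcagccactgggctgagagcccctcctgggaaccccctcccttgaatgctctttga
Adamts12 (chr15:11064523-11064822, plus strand): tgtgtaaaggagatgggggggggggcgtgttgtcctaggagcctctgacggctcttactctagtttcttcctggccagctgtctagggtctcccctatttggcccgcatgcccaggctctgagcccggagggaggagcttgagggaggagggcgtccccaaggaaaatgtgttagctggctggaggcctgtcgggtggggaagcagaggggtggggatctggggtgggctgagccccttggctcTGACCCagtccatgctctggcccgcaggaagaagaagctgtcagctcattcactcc

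The window of Timp2 had 273 of its 300 bases in the XX peak and 289 in the XY peak, and that of Adamtsl5 had 275 and 297. Of the Adamts3 window, 95 and 127 bases lay in the peaks. The XX peak covered 204 bases of the Adamtsl2 window, and the XY peak covered 72 bases of the Adamts12 window. Adamtsl5 held AGGTCA with its first base 202 and 137 bases upstream of the start and GGGTCA on the other strand 54 bases upstream, all inside both peaks. Adamtsl2 held GGGTCA 238 bases upstream, inside its XX peak, and TATAAA 30 bases upstream, outside the peak. Adamts12 held GGGTCA on the other strand 6 bases upstream, inside its XY peak. Timp2 and Adamts3 held none of these letters and are therefore in lower case throughout. AGGTCA was found on either strand in 14.4% of the 5154 protein-coding windows with a peak and in 14.8% of the 16108 without, so that a match in 1 of these 5 windows is near the background. GGGTCA was found in 18.0% and 12.3%, and in 3 of the 5, too few windows to place above or below those shares. The direct repeats of AGGTCA with 0, 1 or 2 bases between the copies were in 0 of the 38 windows of these genes, and in at most 0.0470% of all 21262.

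The windows of the chromosome 9 Mmp cluster were of another make-up. TGANTCA was found in windows of 8 of the 10 genes (Mmp1a, Mmp1b, Mmp3, Mmp7, Mmp10, Mmp12, Mmp13 and Mmp20), and each of these 8 windows also held TATAAA. The letters were TGAATCA at Mmp20 and TGAGTCA or TGACTCA at the other genes named. No window of the other members held TGANTCA. Over all protein-coding windows TGANTCA was in 6.99%, TATAAA in 12.6% and both in 1.44%. These genes arose by tandem duplication, so their windows share ancestry and are not independent. The window of Mmp1a also held AGGTCA, as did those of Mmp1b, Mmp10 and Mmp12, without a peak in either list. The windows of Mmp13 and Mmp3 are shown for comparison with those under a peak, marked in the same way.
Mmp13 (chr9:7272264-7272563, plus strand): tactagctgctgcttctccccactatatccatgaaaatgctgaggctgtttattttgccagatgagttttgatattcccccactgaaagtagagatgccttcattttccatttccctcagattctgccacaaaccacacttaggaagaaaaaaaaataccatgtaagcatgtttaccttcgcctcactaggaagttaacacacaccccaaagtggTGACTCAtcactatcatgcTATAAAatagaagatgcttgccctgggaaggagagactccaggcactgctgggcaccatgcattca
Mmp3 (chr9:7445572-7445871, plus strand): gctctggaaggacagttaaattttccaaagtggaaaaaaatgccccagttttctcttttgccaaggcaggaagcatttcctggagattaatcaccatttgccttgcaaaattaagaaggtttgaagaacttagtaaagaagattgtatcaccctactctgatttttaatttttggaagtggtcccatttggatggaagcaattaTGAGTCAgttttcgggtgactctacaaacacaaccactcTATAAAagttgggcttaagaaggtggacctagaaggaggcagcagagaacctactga

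In Mmp13 the first base of TGACTCA lay 35 bases and that of TATAAA 16 bases upstream of the RefSeq start. In Mmp3 TGAGTCA lay 46 bases and TATAAA 7 bases upstream. G and C made up between 37.7% and 52.0% of the 12 cluster windows, with a median of 1 CpG dinucleotide. In the 5 windows with a peak they made up between 62.0% and 77.3%, with between 7 and 41 CpGs. The 21 windows of other members without a peak reached as high, from 53.3% to 80.0%, so a window rich in G and C was not always one with a peak. Over all protein-coding genes the median was 63.0% in windows with a peak and 53.7% in those without.

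**Figure D5:**
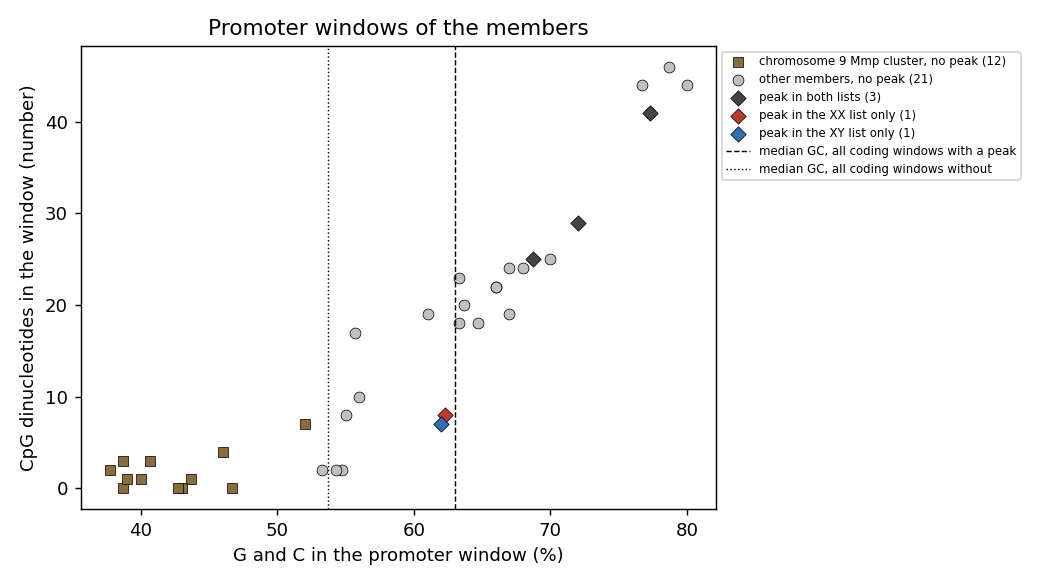
Share of G and C (%) and number of CpG dinucleotides in each of the 38 promoter windows of the members, by peak. The windows of the chromosome 9 Mmp cluster lie at or below 52.0%, the 5 windows with a peak lie at or above 62.0%, and the 21 windows of other members without a peak spread from 53.3% to 80.0%; lines mark the medians over all protein-coding windows.

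Genes that act with these proteases, or whose products they cut, were taken as a pair of lists. Of 38 activators, inhibitors, partners and other matrix proteases, 18 had an XX peak (47.4%, against 36.9% of all genes), 15 an XY peak (39.5%, against 35.0%) and 13 a shared peak (34.2%, against 28.2%). Spock1, a secreted proteoglycan with an inhibitor-like domain, and Adam19, a membrane-bound protease, had 2 shared peaks each. Reck, a membrane-anchored inhibitor of MMPs, had 1 shared peak. Furin, which cuts the propeptides of many MMP and ADAMTS proenzymes, had 1 XY-only peak. Plau, which makes plasmin from plasminogen, had 1 XX-only peak. Of 22 proteoglycan and glycoprotein substrates, 9 had an XX peak (40.9%), 8 an XY peak (36.4%) and 7 a shared peak (31.8%). Decorin (Dcn), fibrillin 2 (Fbn2) and the latent TGF-beta binding protein gene Ltbp1 had 2 shared peaks each, and Ltbp1 had 3 XX-only peaks besides. Genes with 2 or more shared peaks made up 13.6% of the substrates (interval 2.91 to 34.9) and 5.26% of the first list (0.644 to 17.7). Over all genes the share was 3.69%, which both intervals include. Versican (Vcan) and aggrecan (Acan), the main substrates of the proteoglycan-cutting ADAMTS enzymes, had no peak. These lists also lay near the shares over all genes, but their genes were longer, with medians of 49.8 and 53.3 kb against 17.1 kb. Of all genes from 20 to 100 kb, 46.9% had an XX peak, 44.5% an XY peak and 36.1% a shared one. The part of gene length was not tested. Members of the lists are not counted among the 50 genes.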

How the data were processed

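COUP-TFII ChIP-seq and input libraries were made from pooled CD-1 mesonephroi. The labels' protocol text names another factor and tissue for extraction, and the titles, tissue and antibody fields were followed here. Per the submitters' processing notes the build was mm10, and HOMER 4.10.3, Bowtie 1.2, bedtools 2.24.0, Picard and cutadapt were used. Not given in the sources used here were their roles, the peak threshold and how replicates were combined. The deposited lists hold other values than counts or signal: the chromosome, start and end of each 300 bp peak, and depth is unknown. Input was not analysed here.

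Genes came from NCBI RefSeq for GRCm38.p6, the assembly of mm10. In the XX list 48.5% of peak centres lay within 500 bp of an annotated gene end, and at most 6.35% did after shifts of 2 to 100 kb. Each peak went, by its centre, to the protein-coding gene with the nearest body, up to 100 kb away, ties going to the nearer gene end (93.5% of XX and 95.3% of XY peaks). Gene strand came only from the promoter windows. Exons and introns were not used. The assignment was tested on simulated peaks placed at set distances from genes. The overlap of the XX and XY lists was checked against bedtools 2.31.1. Counts used Python 3.11.15, pandas 2.3.3 and SciPy 1.17.1.

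The members and lists were chosen with earlier results of these data known, so no list was tested, and 1 gene of the symbol families is not reported here. All members with a peak were named, and those with 2 shared peaks, 3 peaks in 1 list or a peak within 1 kb of an end got every position, as did some others. In the pathway lists the genes with 2 or more shared peaks were named. Reck, Furin, Plau, Vcan and Acan were added for their roles after values were seen, as were the role groups. Alternatives were other distance limits, gene ends, genes of every type, several genes per peak, other definitions of a shared peak, and leaving out chromosomes X and Y.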

Additional observations from a re-analysis of the deposited data

How the results depend on the processing

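Under other settings the number of genes with a peak ran from 18 to 25 in the XX list and from 16 to 21 in the XY list, and with a shared peak from 14 to 19. The share over all protein-coding genes moved too, from 32.9% to 45.1%, from 31.7% to 43.2% and from 24.5% to 36.0%. Shared peaks were 54.8% to 68.8% of the XX peaks and 70.8% to 85.0% of the XY peaks. XX-only peaks ran from 8 to 14. XY-only peaks ran from 3 to 7, and fell to 3 when genes of every type competed for a peak. The share within 1 kb of an end ran from 31.7% to 44.8%, and 18 of 36 places lay within 2.5 kb. The shares over all genes at these settings are not given here. Adamts5, Adamts9, Mmp8, Mmp19 and Mmp27 lost their peaks to noncoding genes and pseudogenes when genes of every type competed, and Mmp14 lost its shared one. The peaks given to Mmp8, Mmp19 and Mmp27 lay over 10 kb away. By the nearest gene end Adamtsl1 lost both of its peaks. When every gene within 10 kb of a peak received it, Adamts4, Adamts13, Mmp15, Mmp24, Mmp28 and Timp1 gained a peak, and Mmp19 had an XX and an XY peak. Leaving out chromosomes X and Y changed no count at these genes. Leaving out the chromosome 9 cluster, chosen after seeing the data, left 19 of 40 genes with an XX peak and 16 of 40 with a shared one. Over all protein-coding genes, the cluster included, the shares were 36.9% and 28.2%. With AGGTCA or GGGTCA, 9 of the 38 promoter windows held a match (23.7%), beside 26.3% of all windows. Assignment by gene start was not run, since starts were used for 35 of the 50 genes only. No paired analysis was possible because each sex has 1 peak list over both replicates, and for the same reason no replicate could be left out. Without scores, a stricter peak threshold could not be applied, and an absent peak cannot be told from a weak one.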
